A study of Mus musculus with 6 samples.

Results

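The genes described here encode the superoxide dismutases Sod1, Sod2 and Sod3, catalase (Cat) and the glutathione peroxidases Gpx1, Gpx3, Gpx4, Gpx7 and Gpx8. They were chosen by name, as 9 rows among the 55494 of a count table, and all 9 passed the filter on low counts. The table comes from primary muscle stem cells (MuSCs) of wild-type mice, kept in culture for 2 days without (3 control libraries) or with 11,12-EET (3 EET libraries). 11,12-EET, an epoxyeicosatrienoic acid, is a lipid formed from arachidonic acid by enzymes of the cytochrome P450 family. The sources used here give no dose, vehicle, mouse age or method of cell sorting, and do not tie the libraries to separate mice or dishes. A p-value here thus covers only library-to-library spread, some or all of which could be technical.

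Superoxide, a by-product of respiration and the product of NADPH oxidases, is turned into hydrogen peroxide by superoxide dismutases. Sod1 encodes the copper-zinc enzyme of the cytosol, Sod2 the manganese enzyme of the mitochondrial matrix and Sod3 a secreted copper-zinc enzyme that binds the extracellular matrix. Hydrogen peroxide is then removed by catalase in peroxisomes or by peroxidases such as the glutathione peroxidases, many of which draw on glutathione. Cycling muscle stem cells carry more respiring mitochondria than resting ones, and they rely on these enzymes to hold peroxide low.

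The members of the glutathione peroxidase family differ at their catalytic residue, which sorts the 5 genes into 2 kinds. Gpx1, Gpx3 and Gpx4 are selenoproteins, in which an in-frame TGA codon is read as selenocysteine. Gpx7 and Gpx8, enzymes of the endoplasmic reticulum (ER), have a cysteine codon at the same place. The coding sequence around that codon, 8 codons on each side in GENCODE M21 transcripts, is shown so that the difference can be seen, with the catalytic codon in capitals.
Gpx1: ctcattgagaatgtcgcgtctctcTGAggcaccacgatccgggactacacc
Gpx3: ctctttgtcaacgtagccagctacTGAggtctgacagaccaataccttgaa
Gpx4: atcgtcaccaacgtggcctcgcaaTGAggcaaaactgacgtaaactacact
Gpx7: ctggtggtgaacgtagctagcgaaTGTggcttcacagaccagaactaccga
Gpx8: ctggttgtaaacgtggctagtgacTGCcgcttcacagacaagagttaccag
In Gpx1 it is codon 47 of 201, at chr9:108339451-108339453 (GRCm38, plus strand). The TGA of Gpx3 is codon 73 of 226 and that of Gpx4 codon 129 of 253 in its longest reading frame. Gpx7 has TGT at codon 56 of 186 and Gpx8 has TGC at codon 79 of 209.

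Across the libraries, total counts ran from 30371291 to 37243882, and 1 count was worth 0.0263 to 0.0320 CPM (counts scaled to a common total with TMM factors). Against the 6-library mean, levels followed mRNA length, by 0.12 to 0.24 log2 units per doubling of length in controls and by −0.27 to −0.11 in EET libraries, so that mRNA length and treatment cannot be told apart in the values as counted. Each member is therefore also given from a length-adjusted fit, in which every library's smooth trend with mRNA length and GC content was taken out, so that a gene is set against mRNAs like its own in both. All 10 muscle stem cell and myoblast markers were measured, and their summed level was 3035 to 3308 CPM in controls and 3486 to 3568 CPM with EET. They did not move together: at an adjusted p under 0.05 (edgeR) 4 were called higher and 1, Pax7, lower. Pax7 went from 114 ± 4.71 to 83.5 ± 1.64 CPM (SD, n = 3 each). It was not called in the length-adjusted fit, where 1 marker was higher and 1 lower. Over all genes 24.6% were higher and 23.3% lower, or 17.1% each way in the length-adjusted fit. Markers of other cells were present: 8 endothelial genes summed to 285 to 304 CPM in controls and 166 to 187 CPM with EET, 6 Schwann cell genes to 398 to 412 and 295 to 324 CPM, and 8 macrophage genes to 299.6 to 331 and 190.0 to 374 CPM. Lyz2 made up most of the macrophage sum, at 206 to 230 CPM in controls and 283, 145 and 128 CPM with EET. Of the 8 macrophage genes 2 were called lower and 0 higher, or 4 and 1 in the length-adjusted fit. The 8 markers of fibro-adipogenic cells summed to 442 to 453 CPM in controls and 410.3 to 421 CPM with EET. As counted 6 endothelial genes were called lower and 0 higher, and 5 Schwann cell genes lower and 1 higher. Of the fibro-adipogenic genes 2 were called lower and 0 higher. In the length-adjusted fit 7 endothelial, 4 Schwann cell and 4 fibro-adipogenic genes were called lower, and 0 of each higher.

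Transcripts of most of these antioxidant enzymes were more abundant with EET. Of the 9 genes 7 rose, 1 (Cat) fell and 1 (Sod3) was not called, at an adjusted p under 0.05 (edgeR's quasi-likelihood test with Benjamini-Hochberg adjustment over 16097 genes). Over all genes tested 47.9% were called, 24.6% higher and 23.3% lower. The median log2 fold change was 0.70 over the 9 genes and 0.005 over all genes, at median mRNA lengths of 1289 and 3201 bp. In the length-adjusted fit these medians were 0.055 and −0.015. The largest rises were those of Gpx4 and Gpx1, the peroxidases of membrane lipids and of the cytosol, at 2.74-fold and 2.37-fold. In the length-adjusted fit 3 rose (Sod2, Gpx1 and Gpx4) and 2 fell (Sod1 and Cat), where 34.2% of 13811 genes were called, 17.1% higher and 17.1% lower. With the median over a gene's transcripts as length, 5 rose (Sod1, Sod2, Gpx1, Gpx4 and Gpx8) and 1 fell (Cat), where 42.8% of genes were called, 21.2% higher and 21.6% lower. The 3 EET libraries lay above all controls for 7 of the 9 genes and below them for 1, against 29.6% and 28% of all genes, or 57.7% in either direction. In these bulk libraries, a change in the share of a cell type and a change in RNA per cell cannot be told apart.

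**Figure D1:**
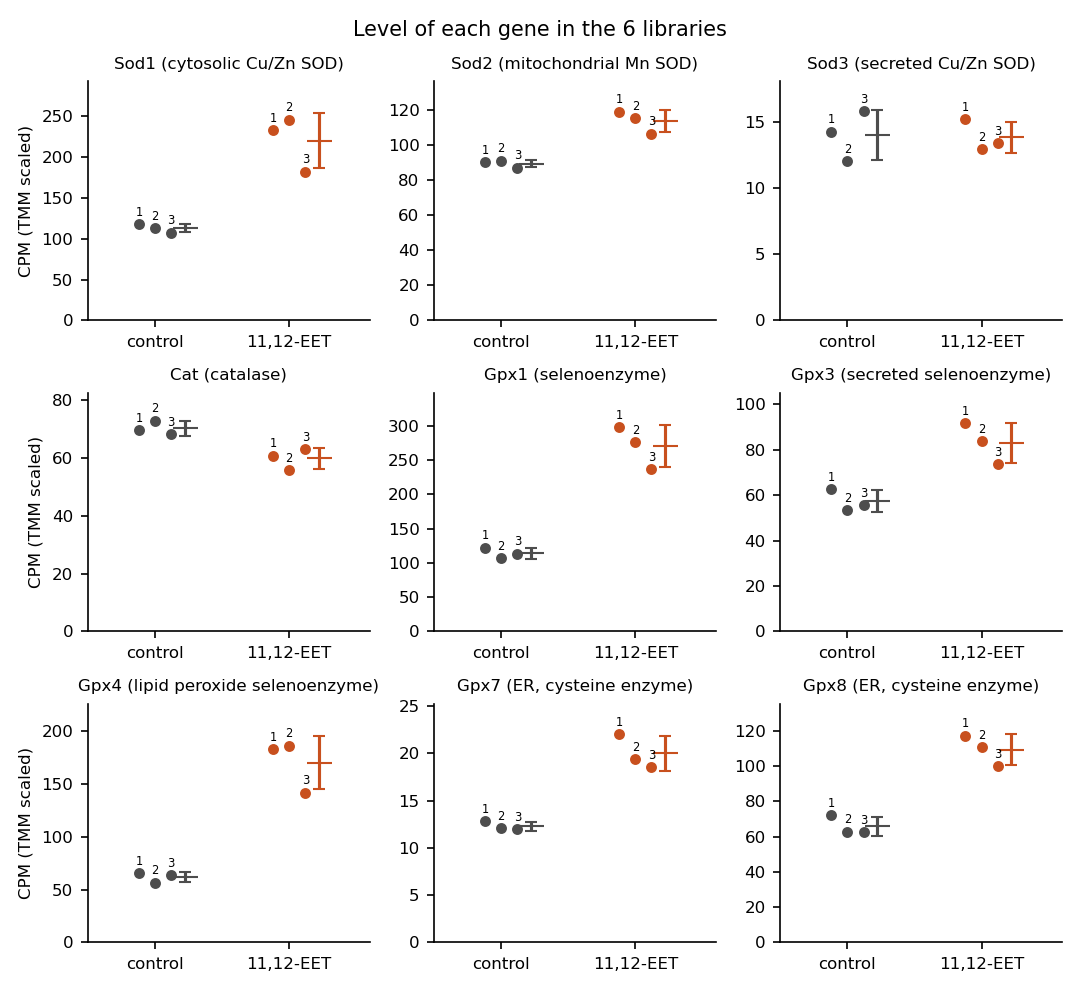
Level of each gene in CPM (TMM scaled; axes start at 0) in 3 control and 3 11,12-EET libraries. Numbered points are libraries, and horizontal ticks with bars are the mean and SD. The EET points lie above all controls in 7 panels, below them for Cat and among them for Sod3.

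Promoters are shown for 3 genes that differed in the comparison: Sod1 and Gpx1, which rose as counted, and Cat, which fell. Each is RefSeq sequence (GRCm38.p6) from 250 bases before to 50 after the start site, read in the direction of the gene, with matches to any of 4 motifs on either strand in capitals.
Sod1, chr16:90220512-90220811, plus strand: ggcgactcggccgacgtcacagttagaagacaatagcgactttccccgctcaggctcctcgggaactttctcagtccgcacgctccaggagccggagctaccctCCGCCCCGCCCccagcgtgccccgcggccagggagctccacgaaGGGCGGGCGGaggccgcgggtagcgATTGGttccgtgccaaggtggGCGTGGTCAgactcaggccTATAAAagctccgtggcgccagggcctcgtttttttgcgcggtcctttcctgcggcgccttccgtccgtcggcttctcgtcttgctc
Gpx1, chr9:108338830-108339129, plus strand: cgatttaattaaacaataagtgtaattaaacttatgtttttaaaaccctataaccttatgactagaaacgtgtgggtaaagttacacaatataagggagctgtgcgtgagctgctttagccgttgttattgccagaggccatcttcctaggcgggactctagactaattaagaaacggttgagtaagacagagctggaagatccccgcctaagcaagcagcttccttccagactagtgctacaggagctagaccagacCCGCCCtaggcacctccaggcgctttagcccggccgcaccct
Cat, chr2:103485104-103485403, minus strand: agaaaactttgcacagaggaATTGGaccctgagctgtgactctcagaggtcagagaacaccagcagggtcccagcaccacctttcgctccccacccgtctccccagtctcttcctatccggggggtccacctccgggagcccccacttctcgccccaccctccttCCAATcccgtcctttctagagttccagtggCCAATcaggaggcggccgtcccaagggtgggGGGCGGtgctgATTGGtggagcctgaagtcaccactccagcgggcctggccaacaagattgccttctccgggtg
The motifs searched were the antioxidant response element to which NRF2 binds (TGACNNNGC), the GC box (GGGCGG), the CCAAT box (CCAAT) and the TATA box (TATAAA). Of 32851 promoters of that length in RefSeq, 12.4% hold the first, 35.7% the second, 37.4% the third and 13.6% the last. Sod1 holds 1 antioxidant response element, 4 GC boxes that overlap in pairs, 1 CCAAT box and 1 TATA box. Gpx1 holds 1 GC box, and Cat holds 1 GC box and 4 CCAAT boxes. Promoters of 8 of the 9 genes were matched, and among these Sod1 was the gene with a match to the antioxidant response element in this window. A match is a run of letters and not a measured site.

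The superoxide dismutases did not move as a unit. Sod1 stood at 118, 113 and 108 CPM in the controls and at 233, 246 and 182 CPM with EET. Each EET library was above each control, the lowest of them being EET replicate 3. The gene (chromosome 16, 90220754 to 90226329, plus strand) rose by 0.97 ± 0.10 (log2 ± SE, edgeR adjusted p = 3.43e-06).
Its mRNA of 641 bp is the shortest of the 9. Among mRNAs of 500 to under 750 bp, 71.4% were called higher, 0% lower, and the median log2 fold change was 1.08, slightly above that of Sod1. Once adjusted for length and GC, Sod1 was called lower, at −0.14 ± 0.05 (edgeR adjusted p = 0.0266). That direction held only with the longest transcript as length: with the median over a gene's transcripts as the measure for all genes, Sod1 was called higher at 0.44 ± 0.07 (edgeR adjusted p = 8.88e-05).

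Sod2, the mitochondrial enzyme, had 90.0, 91.0 and 87.0 CPM in the controls and 119, 115 and 106 CPM with EET. The groups did not overlap, and the rise was small at 0.35 ± 0.07 on the log2 scale (edgeR adjusted p = 0.000751). Sod2 (chromosome 17, 13006846 to 13040063, plus strand) has the longest mRNA of the 9, at 5861 bp. Of 1772 mRNAs of 5000 to under 7000 bp, 3.61% were higher and 61.9% lower, with a median of −0.42. Set against mRNAs of like length and GC, the rise of Sod2 was 0.72 ± 0.09 (edgeR adjusted p = 0.000238), the largest value of the 9 genes in that fit. GENCODE M21 lists a second protein-coding model of 451 bp for Sod2, and with the median transcript length the value was 0.52 ± 0.07, still called higher.

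Sod3, the secreted enzyme, was the least abundant of the dismutases, with 14.3, 12.1 and 15.8 CPM in controls and 15.2, 12.99 and 13.4 CPM with EET. Its groups overlapped. The log2 fold change was −0.02 ± 0.12 (edgeR adjusted p = 0.928), with a 95% interval of −0.28 to 0.24, and its sign changed when single libraries were left out. Sod3 (chromosome 5, 52363791 to 52371418, plus strand) has an mRNA of 3738 bp, in a class with 9.9% of genes higher and 30.2% lower. After length adjustment it was not called either, at 0.11 ± 0.11. Smooth muscle of vessel walls is a known source of the secreted dismutase. The 7 pericyte and smooth muscle markers, none of them at 0 in all libraries, summed to 177 to 202 CPM in controls and 117 to 127 CPM with EET. As counted 5 were called lower and 1 higher, and in the length-adjusted fit 3 lower and 0 higher. Over all genes tested 23.3% were lower and 24.6% higher as counted, and 17.1% each way in the length-adjusted fit. The part of pericytes and smooth muscle in the level of Sod3 was not tested.

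Catalase went the other way. Cat, the peroxisomal enzyme that splits hydrogen peroxide without drawing on glutathione, had 69.6, 73.0 and 68.2 CPM in controls and 60.8, 55.8 and 63.0 CPM with EET. All EET libraries were below all controls, by a mean of 70.3 ± 2.47 against 59.9 ± 3.69 CPM (SD, n = 3 each). The fall of 0.23 on the log2 scale (log2 fold change −0.23 ± 0.08, edgeR adjusted p = 0.0199) was the smallest called change of the 9. It was no longer called without control replicate 2 (edgeR adjusted p = 0.0999) or without EET replicate 2 (0.111).
Cat lies on the minus strand of chromosome 2 at 103453849 to 103485160 and has an mRNA of 2613 bp. Among 3023 mRNAs of 2000 to under 3000 bp, 5.23% were lower and 31.3% higher. In the length-adjusted fit Cat was lower by more, at −0.33 ± 0.06 (edgeR adjusted p = 0.000269), and at −0.42 ± 0.07 with the median transcript length.

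Of the selenoprotein peroxidases, whose TGA codons are shown above, Gpx4 had the largest rise. Gpx4 encodes the enzyme that reduces lipid hydroperoxides within membranes and thereby protects cells from ferroptosis, a form of death by lipid peroxidation. Its level was 65.9, 56.8 and 63.8 CPM in controls and 183, 186 and 142 CPM with EET. The lowest EET library was more than double the highest control. The log2 fold change of 1.46 ± 0.10 (edgeR adjusted p = 6.36e-07) placed Gpx4 at percentile 99.0 of all genes tested. At an mRNA length of 995 bp, its class of 750 to under 1000 bp had a median of 0.91 and 76% of genes higher against 1.03% lower. Once adjusted for length and GC, Gpx4 rose by 0.60 ± 0.05 (edgeR adjusted p = 1.39e-07). The counts are per gene symbol, so for Gpx4 (chromosome 10, 80047166 to 80056439, plus strand) the cytosolic, mitochondrial and nuclear forms of the enzyme were not separated.

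Gpx1, the most abundant glutathione peroxidase in these libraries, reduces hydrogen peroxide in cytosol and mitochondria. It had 122, 107 and 113 CPM in controls and 298, 276 and 237 CPM with EET. Here too the EET libraries were all far above the controls. The gene (chromosome 9, 108338903 to 108340343, plus strand) rose by 1.24 ± 0.09 (edgeR adjusted p = 5.45e-07), and by 0.46 ± 0.05 in the length-adjusted fit (edgeR adjusted p = 4.26e-07). Red blood cells are rich in Gpx1, Cat and Sod1. The summed level of 6 erythroid markers was 1.74 to 46.8 CPM in controls and 2.17 to 25.7 CPM with EET, with overlapping ranges. It differed widely within each group: Hbb-bs had 26.2, 0.70 and 1.59 CPM in controls and 1.43, 6.30 and 12.6 CPM with EET. Of the 6 markers 3 had a mean under 1 CPM. The part of red blood cells in these levels was not tested.

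Gpx3, the secreted plasma peroxidase, is the third selenoprotein of the set. It had 62.7, 53.4 and 55.7 CPM in controls and 91.6, 83.6 and 73.7 CPM with EET. The groups were apart, and the gene (chromosome 11, 54902453 to 54910377, plus strand) rose by 0.53 ± 0.09 (edgeR adjusted p = 0.000195). Its mRNA of 1594 bp falls in a class with 58.3% of genes higher, 1.75% lower and a median of 0.38. Set against mRNAs of like length and GC, it was not called, at 0.05 ± 0.06 (edgeR adjusted p = 0.506).

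The cysteine enzymes of the ER rose to a like extent as counted. Both use hydrogen peroxide from oxidative protein folding to oxidise protein disulfide isomerases. Gpx7 had 12.8, 12.1 and 12.0 CPM in controls and 22.1, 19.4 and 18.5 CPM with EET, a rise of 0.70 ± 0.11 (edgeR adjusted p = 7.07e-05). Gpx8 had 72.1, 62.9 and 62.6 CPM in controls and 117, 111 and 99.9 CPM with EET, a rise of 0.73 ± 0.08 (edgeR adjusted p = 7.24e-06).
Gpx7 lies on the minus strand of chromosome 4 at 108400390 to 108406961, and Gpx8 on that of chromosome 13 at 113042753 to 113046410. Neither gene's groups overlapped, and Gpx8 was several times the more abundant. Their mRNAs of 1289 and 1042 bp share a length class, 1000 to under 1500 bp, in which 70.6% of 1164 genes were higher and 1.2% lower at a median of 0.65. After length adjustment neither was called: Gpx7 was at 0.05 ± 0.09 and Gpx8 at −0.02 ± 0.05. With the median transcript length Gpx8 was called higher at 0.39 ± 0.06 and Gpx7 was not called at 0.16 ± 0.09.

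**Figure D2:**
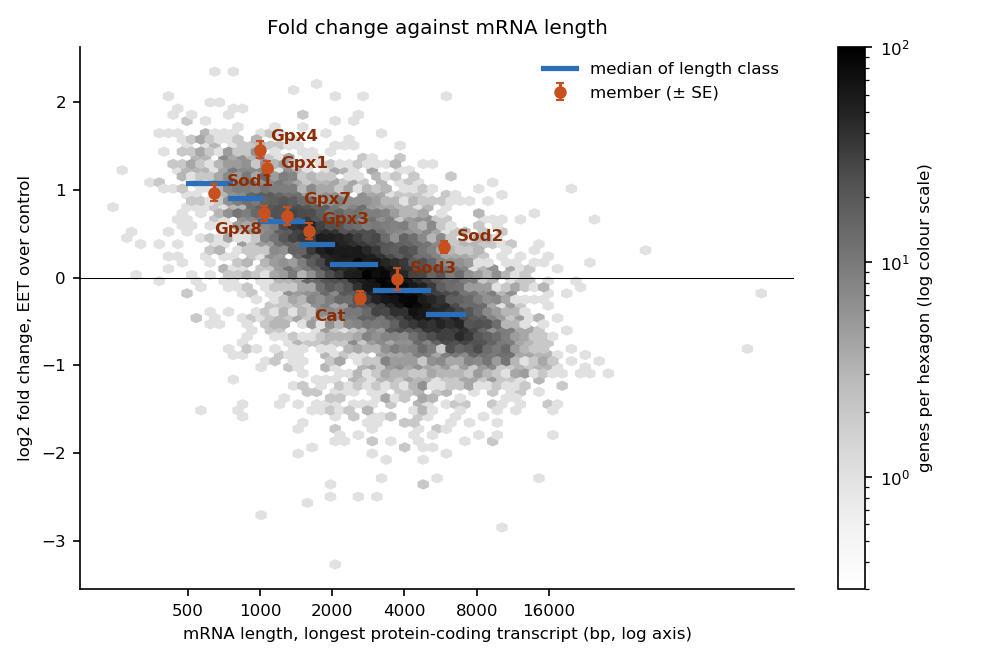
Log2 fold change (EET over control) against mRNA length in bp on a log axis for protein-coding genes tested; grey hexagons are shaded by the number of genes, on a log scale. Blue lines are class medians and orange points are the members ± SE. Cat lies below its class median and Sod1 slightly below. The other members lie above theirs, Gpx4, Gpx1 and Sod2 by the most.

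**Figure D3:**
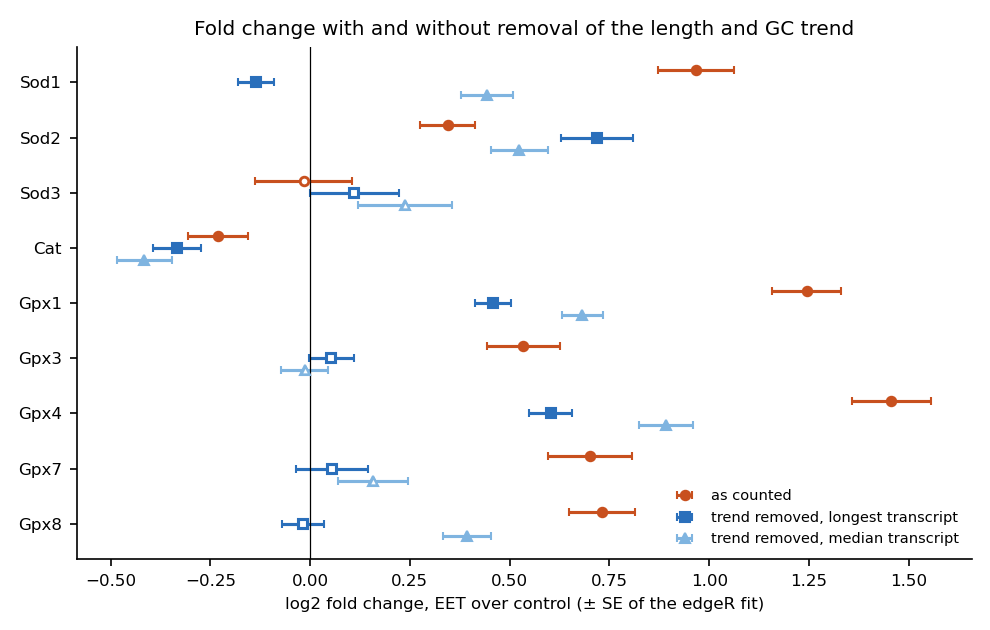
Log2 fold change of each member ± SE as counted and in the length-adjusted fit, using the longest or the median transcript length; open symbols are not called at an adjusted p under 0.05. Sod2, Gpx1 and Gpx4 are called higher and Cat lower in all 3 fits shown.

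A ratio of counts between 2 members of the same library needs no scaling factor. Gpx4 against Sod1 had log2 ratios of −0.84, −0.99 and −0.76 in controls and −0.35, −0.40 and −0.36 with EET, a shift of 0.49. Gpx4 also gained on Gpx1, from −0.88 ± 0.04 to −0.67 ± 0.09 (SD, n = 3 each). Gpx1 against Cat rose from 0.70 ± 0.14 to 2.17 ± 0.23, a shift of 1.47. That is the largest shift of the 6 pairs compared. Sod2 against Sod1 fell by 0.61, from −0.34 ± 0.04 to −0.95 ± 0.16, and Sod3 against Sod1 fell by 0.97. In each of these 5 pairs the groups did not overlap, with the smallest exact two-sided permutation p that 3 against 3 libraries allow, 0.1, and 0.12 after adjustment over the 6 pairs. Gpx8 against Gpx7 overlapped between the groups, at 2.42 ± 0.06 and 2.45 ± 0.05 (exact permutation p = 0.5). In the length-adjusted fit Sod2 gained on Sod1, by 0.85, Gpx1 on Cat by 0.79, Gpx4 on Sod1 by 0.74 and Gpx4 on Gpx1 by 0.14. These ratios were not taken with the trend by the median transcript length. With that length Sod1 (0.44 ± 0.07) and Sod2 were both called higher, by values close to each other given their SEs. Whether Sod2 gained on Sod1 thus depends on the treatment of length. Sod3 against Sod1 also turned, to 0.25, and its groups then overlapped, as did those of Gpx8 against Gpx7 (−0.070).

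Levels can be compared between genes only per length, as CPM per kb of the longest protein-coding transcript. On that scale Sod1 was highest in controls at 176 ± 7.81, followed by Gpx1 at 106 ± 7.31, Gpx8 at 63.2 ± 5.19, Gpx4 at 62.5 ± 4.80, Gpx3 at 35.9 ± 3.05, Cat at 26.9 ± 0.943, Sod2 at 15.2 ± 0.356, Gpx7 at 9.55 ± 0.371 and Sod3 at 3.76 ± 0.509 CPM per kb. Gpx8 and Gpx4 overlapped between control libraries, and the other neighbours in this order did not. With EET the order was the same except that Gpx4 (171 ± 24.9 CPM per kb) passed Gpx8 (105 ± 8.46), and no neighbours overlapped. With the union of all exons as length, Sod1 ranked 5 in controls and Gpx1 ranked 1, since the annotation gives Sod1 3970 bp of exons in all.

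The shares of the dismutases depended on the treatment of length. As a share of the summed level per kb of the longest transcript, Sod1 made up 90.2 ± 0.388% of the dismutase transcripts in controls and 93.6 ± 0.717% with EET. Sod2 went from 7.82 ± 0.218% to 5.33 ± 0.561% and Sod3 from 1.93 ± 0.308% to 1.03 ± 0.161%. These directions turned when each library's length and GC trend, by the longest transcript, was removed. Sod1 then went from 93.8 ± 0.375% to 90.01 ± 1.28% and Sod2 from 4.89 ± 0.357% to 8.49 ± 1.13%, without overlap, while Sod3 overlapped at 1.31 ± 0.182% and 1.49 ± 0.164%. The trend by the median transcript length was not removed from the shares. In the fit that took it out, Sod1 was called higher at 0.44 ± 0.07. With no trend removed, the size of the shares moved with the length used. Sod1 was at 84.6 ± 0.470% in controls and 89.6 ± 1.10% with EET by the median transcript length, and at 69.1 ± 1.20% and 78.5 ± 2.10% by the union of exons. Among the glutathione peroxidases, Gpx1 went from 38.3 ± 0.208% to 42.3 ± 0.598% and Gpx4 from 22.5 ± 0.776% to 28.7 ± 1.45%. Gpx8 went from 22.8 ± 0.748% to 17.7 ± 0.686%, Gpx3 from 12.9 ± 0.218% to 8.74 ± 0.226% and Gpx7 from 3.45 ± 0.150% to 2.61 ± 0.169%. The selenoproteins Gpx1 and Gpx4 thus took a larger part of their family's transcripts with EET, and the third selenoprotein, Gpx3, a smaller one, with no overlap between the groups for any of the 5. The directions of all 5 were the same, again without overlap, with the trend removed. They were also the same by the median length and by the union of exons. A change of length scales each gene alike in all 6 libraries and leaves its fold change as it was. Agreement between lengths was therefore largely fixed in advance. The shares of a family also depend on each other, since a gain of 1 gene lowers the others.

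**Figure D4:**
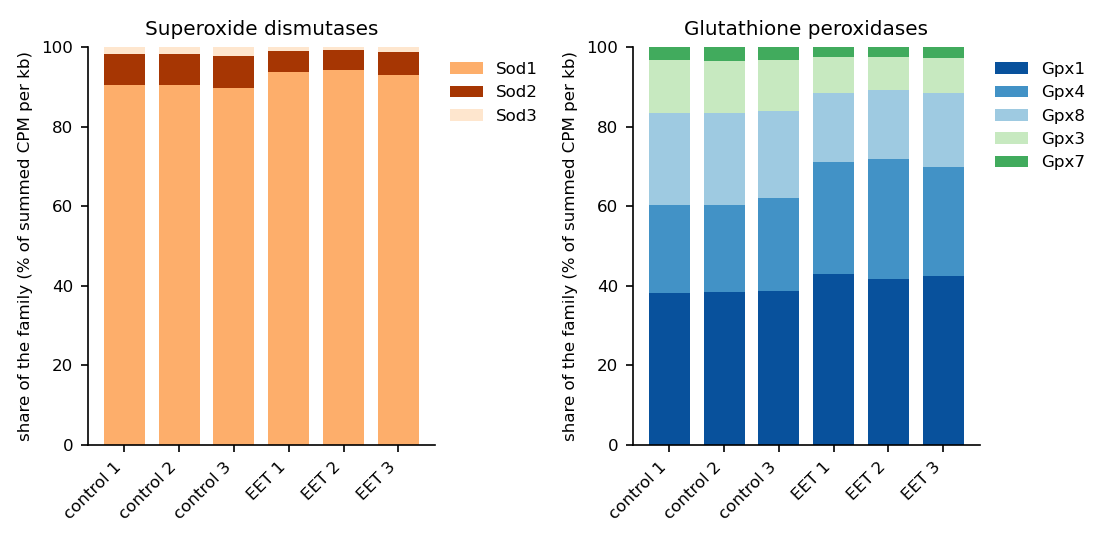
Share of each gene in the summed level (CPM per kb) of the dismutases (left) and of the glutathione peroxidases (right), in percent, as counted, with 1 bar per library. With the longest transcript as length, Sod1 is at 89.8% of its family or more in every library. Its rise with EET turns when the length trend by the longest transcript is removed. Gpx1 and Gpx4 together take more of their family in the EET libraries.

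The other genes of these pathways were taken from 10 lists, whose counts stand against 24.6% of all genes higher and 23.3% lower as counted, and 17.1% each way in the length-adjusted fit. The remaining glutathione peroxidases were near absent: Gpx2 had 2 to 20 counts in a library, and Gpx5 and Gpx6 had 0 to 2, too few to test. Ccs, the chaperone that loads copper into Sod1, rose from 11.9 ± 0.951 to 19.2 ± 1.72 CPM, but was not called in the length-adjusted fit (−0.10).

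Genes that supply glutathione and NADPH moved both ways: of 12, 4 rose and 2 fell, with a median log2 fold change of 0.06, so that neither share was far from that of all genes. The number that fell was 1 when any one of control replicates 2 and 3 and EET replicates 1 and 2 was left out. Slc7a11, the cystine importer, fell from 71.5 ± 7.93 to 43.4 ± 2.75 CPM, while Gss, glutathione synthetase, rose by 0.37 ± 0.08 and Idh2, the mitochondrial NADPH-producing isocitrate dehydrogenase, by 0.56 ± 0.07. Once adjusted for length and GC, 3 rose and 5 fell; Slc7a11 was still called lower at −0.17 and Idh2 higher at 0.15. Gclm and Gclc, the small and the catalytic subunit of glutamate-cysteine ligase, were called higher at 0.24 and lower at −0.20, and in the length-adjusted fit at 0.59 and −0.14. Me1 was the other riser in both fits, and G6pdx, Pgd and Idh1, which supply NADPH, were called lower only in the length-adjusted fit, at −0.21, −0.21 and −0.32.

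Among genes of selenocysteine incorporation and selenium supply, on which Gpx1, Gpx3 and Gpx4 depend, 4 of 9 rose and 2 fell, at a median of 0.21, and 1 fell without control replicate 2 or EET replicate 2. Trnau1ap, a protein bound to the selenocysteine tRNA, rose from 19.5 ± 0.856 to 44.7 ± 6.69 CPM, Pstk, the kinase that acts on that tRNA, from 10.6 ± 0.881 to 20.6 ± 1.51 CPM and Sephs2, selenophosphate synthetase, from 51.4 ± 4.197 to 75.3 ± 7.70 CPM. Set against mRNAs of like length and GC, 3 of the 9 rose and 0 fell; Trnau1ap was at 0.44, Sephs2 at 0.31 and Pstk, not called, at 0.23. Scly was the other riser as counted (0.34) and Sephs1 the other one after adjustment (0.39), and the genes that fell as counted were Sepsecs (−0.31) and Lrp8 (−0.42). Of 16 other selenoproteins tested 8 rose and 2 fell, at a median of 0.32, or 5 and 2 in the length-adjusted fit. Selenow, Selenof and Selenoh rose by 1.43 ± 0.11, 0.85 ± 0.07 and 1.26 ± 0.12 on the log2 scale, and in the length-adjusted fit were called higher at 0.40, 0.36 and 0.27, as were Selenok and Txnrd2. The thioredoxin reductase gene Txnrd1 was called lower in both fits (−0.25 and −0.15), Selenoi as counted (−0.43) and Selenop after adjustment (−0.36).

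Of 12 genes tested that handle copper, zinc and manganese, the metals of the dismutases, 5 rose and 2 fell, at a median of 0.04. Mt1, a metallothionein, rose by 1.24 ± 0.11, Atox1, a cytosolic copper chaperone, by 1.28 ± 0.17 and Slc25a3, a mitochondrial carrier of phosphate and copper, by 0.47 ± 0.07. Ccs and Mt2 were the other risers, and Atp7a and Slc39a14 fell. The calls left in the length-adjusted fit were Mt1, higher at 0.45, and Atp7a, lower at −2.08. Of 18 sources of superoxide and peroxide 3 rose and 5 fell, at a median of −0.17, shares near those of all genes. The number that fell was 3 without control replicate 2 or without EET replicate 3, and the number that rose was 2 without control replicate 2, control replicate 3 or EET replicate 2. Poldip2, a partner of NADPH oxidase 4, rose by 0.50 ± 0.07 and Cyba, the p22phox subunit, by 0.74 ± 0.13, while Xdh, xanthine dehydrogenase, fell by 0.49 (SE 0.11). Maoa was the other riser, and Cybb, Aox1 and the ER oxidase gene Ero1l (the older symbol of Ero1a) were among the others that fell. Cyba turned in the length-adjusted fit and was called lower at −0.29, the only call in that direction, while Rac1, Poldip2 and Maoa were called higher.

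Of 16 genes of peroxisome assembly and import 7 rose and 2 fell, at a median of 0.30, or 5 and 0 in the length-adjusted fit. When each library was left out in turn, 5 to 8 rose and 1 to 2 fell, with 1 falling in every case but that without EET replicate 1. Pex2, a ring finger ligase of the import cycle, rose by 0.55 ± 0.08 and Pex7, the receptor of a second import signal, by 0.72 ± 0.12, and both were called higher in the length-adjusted fit, as were Pex13 and Pex19. Pex26 was among the genes that fell as counted (−0.37). Among 11 genes of oxidative protein folding, the partners of Gpx7 and Gpx8, 4 rose and 1 fell at a median of 0.14. The number that rose was 1 without control replicate 2, and 2 without control replicate 3 or without EET replicate 2. Prdx4, the ER peroxiredoxin, rose by 0.89 ± 0.10 and Erp44 by 0.27 ± 0.07, while Ero1l fell by 0.28 (SE 0.08), and none of these 3 was called in the length-adjusted fit. The disulfide isomerase genes Pdia3 and Pdia6 were the other risers as counted, and after adjustment Pdia3 was called higher and Pdia4 and Pdia5 lower.

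In the list around Gpx4, lipid peroxidation and ferroptosis, 6 of 16 rose and 3 fell, at a median of −0.01. Cisd1, an iron-sulfur protein of the outer mitochondrial membrane, rose by 1.20 ± 0.11, and Ftl1, the ferritin light chain, by 0.92 ± 0.10. Ncoa4, which carries ferritin to the lysosome, fell from 73.3 ± 5.39 to 38.0 ± 8.54 CPM. After length adjustment 4 rose and 4 fell; Cisd1 was at 0.41 and Ncoa4 at −0.79, both called, and Ftl1 at 0.08 was not. Acsl4 and the transferrin receptor gene Tfrc were the others that fell as counted, and both were also called lower after adjustment, with Lpcat3. Gch1, Dhodh and Vkorc1l1 joined Cisd1 as risers there.

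Of the transcription factors and cofactors of antioxidant genes, few rose as counted: 1 of 18 rose and 10 fell, at a median of −0.30. Bach1, a repressor that competes with NRF2, fell from 55.0 ± 6.41 to 30.05 ± 1.98 CPM, Foxo3 from 77.3 ± 3.16 to 50.6 ± 5.24 CPM and Sp1, which binds GC boxes, from 156 ± 21.04 to 99.3 ± 9.34 CPM. The tested mRNAs of this list are long, with a median of 4274 bp against 1289 bp for the 9 enzymes. In the length-adjusted fit 1 rose and 5 fell at a median of −0.11, and of the 3 named Bach1 was called, at −0.44. The riser was Esrra as counted (0.43) and Mafg after adjustment (0.25). Nfe2l2, which encodes NRF2, was not called as counted and was called lower after adjustment (−0.17), with Ppargc1b, Rela and Trp53.

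**Figure D5:**
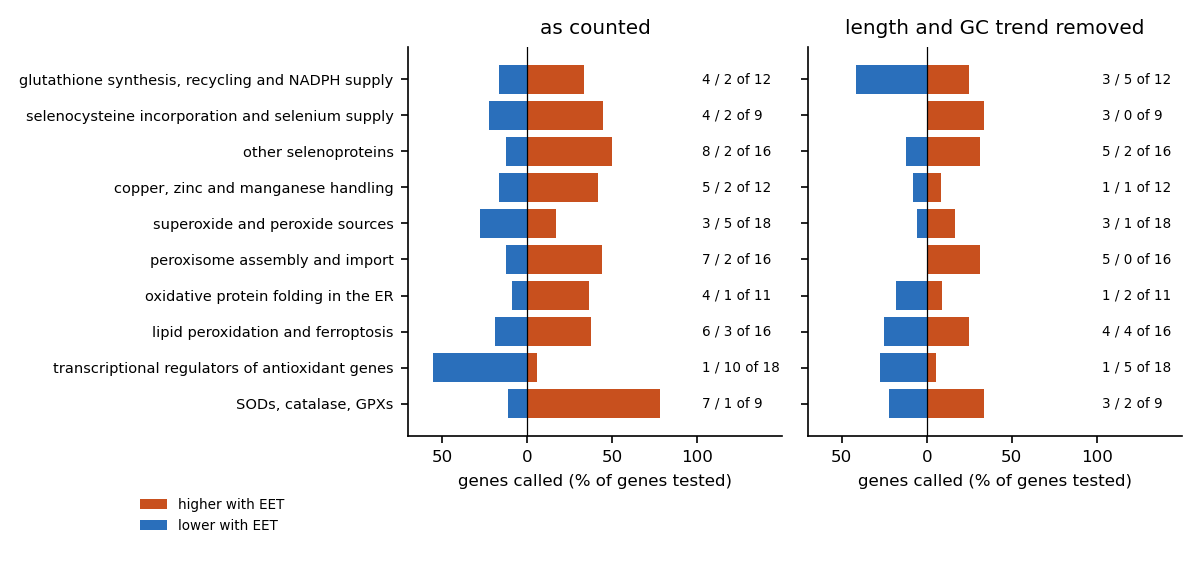
Genes called higher (right of 0) or lower (left of 0) in each list, in percent of those tested, as counted and in the length-adjusted fit; the numbers give higher / lower of tested. Of the enzymes described here 7 of 9 are higher as counted and 3 of 9 in the length-adjusted fit.

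The genes most like each member in log2 CPM over the 6 libraries, which all share the difference between the groups, had a Pearson r of 0.998 to 1.00 for every member but Sod3. They were Mrps33 for Sod1, Lgals1 for Sod2, Mfsd6 for Cat, Pmm1 for Gpx1, Pmf1 for Gpx3, Tipin for Gpx4, Chchd3 for Gpx7 and Eif5a for Gpx8. For these 8 members 1510 to 2784 of 8865 genes had an r over 0.9. Sod3, whose groups overlapped, had 3 such genes, and the most like it was Rnf41 at 0.92.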

How the data were processed

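Poly(A) RNA libraries with a dUTP-marked second strand were sequenced as paired reads, per the labels' protocols. The authors deposited whole-number counts per gene symbol, not normalized, in 1 table with a column per library. Per the submitters' processing notes, the tools were FastQC, cutadapt and DESeq2, and the build GRCm38. Aligner, counter, strand setting and gene annotation are not stated in these sources. Of counts of 11 to 50, 61.3 to 62.1% were even in controls and 65.0 to 65.6% with EET, as when both mates of a pair are counted, so precision is lower than the totals give.

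Groups and replicate numbers came from the titles. The tests used edgeR 4.0.16 under R 4.3.3 (robust glmQLFit and glmQLFTest after filterByExpr and TMM), 3 EET against 3 control libraries, Benjamini-Hochberg adjusted over 16097 genes and called under 0.05. Only called genes are said to have risen or fallen. Errors of log2 fold changes are SEs of the fit, and those of levels, shares and ratios are SDs over 3 libraries. The length-adjusted fit takes the trend, estimated from these same libraries, as known. Its SEs and p-values therefore leave out the error of the trend, also for small changes such as that of Sod1. Lengths and GC content came from GENCODE M21 (GRCm38; 53365 of 55494 rows matched by symbol), and the length-adjusted fit, on 13811 protein-coding genes, took as offset a loess smooth (robust, span 0.3) per library of log2 differences from the 6-library mean against GC content and log2 length of the longest protein-coding transcript. Named genes are the 9 members, the 3 genes with the smallest p of each list, genes behind printed counts of up to 5, and the gene with the highest r to each member (mean of at least 10 CPM); a few such genes are not reported here. The members, lists and alternatives were chosen with earlier results of these data known. The fits were tested on simulated data. Alternatives included limma-voom (limma 3.58.1) and DESeq2 1.42.0.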

Additional observations from a re-analysis of the deposited data

How the results depend on the processing

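The counts of 7 members higher and 1 lower, and the direction and call of each of the 9 genes, were the same with RLE size factors, library totals, no filter, only genes above 5 CPM in 3 or more libraries, DESeq2, limma-voom, no robust estimation, counts divided by 2, the row of CT010467.1 left out and the replicate number as a block. Same-numbered libraries did not deviate together (correlations of −0.0035, −0.05 and 0.0089), and not every library correlated best with its own number; the replicate block gave 4238 genes higher and 4083 lower, against 3967 and 3749. Leaving out each library in turn gave 7 members higher each time, 0 to 1 lower, and log2 fold changes of 1.39 to 1.57 for Gpx4, −0.27 to −0.18 for Cat and −0.12 to 0.074 for Sod3; the call of Cat was lost without control replicate 2 or EET replicate 2. With the length and GC trend removed 3 members were higher and 2 lower, also with the replicate block added or with length alone. All genes higher then numbered 2361, or 2475 with the block and 2306 with length alone; all genes lower numbered 2361, or 2293 with length alone. With the median transcript length 5 members were higher and 1 lower, and 2929 and 2983 of all genes. By alternatives chosen after seeing the data, the change in share of the dismutases turned with the trend by the longest transcript removed, to −3.79 percentage points for Sod1, 3.61 for Sod2 and 0.18 for Sod3. It had the direction given in the report with both other lengths and no trend removed. That is no independent check, since a change of length scales each gene alike in all libraries. Sod1, with the largest fold change of the dismutases, then gains share and Sod3, with the smallest, loses it by any length. Values turned as follows, in the order trend removed, with the replicate block added, length alone: Sod1 −0.14, −0.14 and −0.15; Gpx8 −0.017, −0.017 and −0.089; Ccs −0.10, −0.10 and −0.11; Cyba −0.29, −0.29 and −0.31; Sod3 0.11, 0.11 and 0.10. With the median length Sod3 was at 0.24, Gpx3 at −0.013 and Gss at −0.11. Sod3 also turned without control replicate 3 (0.074), EET replicate 2 (0.031), EET replicate 3 (0.0096) and with control 1 and EET 3 both left out (0.0084). With the trend by the longest transcript removed the log2 ratios turned for Sod2/Sod1 (0.85), Sod3/Sod1 (0.25) and Gpx8/Gpx7 (−0.070) and moved for Gpx1/Cat (0.79) and Gpx4/Sod1 (0.74). The cause of the length trend was not tested. As counted, Sod3 and Gpx7, the genes with the fewest counts, had the least precise values.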

Other observations

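Atp7a, singled out here after its values were seen, had the largest fall in the metal list. It encodes the copper pump that supplies secreted copper enzymes such as Sod3. Its level was 21.3 ± 5.81 CPM in controls and 4.11 ± 1.504 CPM with EET (SD, n = 3 each). The log2 fold change was −2.37 ± 0.27 (edgeR adjusted p = 6.93e-05), or −2.08 with the length and GC trend removed, and −2.70 to −2.21 when each library was left out in turn. The gene of the copper importer, Slc31a1, was at 58.5 ± 1.48 and 56.3 ± 1.75 CPM and was not called.

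A processed pseudogene of Gpx4, Gpx4-ps2 (chromosome 10, 45875291 to 45876086), held 78, 102 and 82 counts in controls and 382, 350 and 270 counts with EET. That was 3.11 to 4.81% of the counts of Gpx4 in controls and 5.91 to 6.01% with EET, so the pseudogene's share was higher in every EET library. How reads shared by such near-identical copies were counted is not stated in these sources, so both rows are uncertain.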
